A study of Rattus norvegicus with 6 samples.

Results

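Cytosolic ribosomal proteins build the 2 subunits of the ribosome that translates nuclear-encoded mRNAs. Their genes were followed in mesenchymal stem cells from rat bone marrow (MSCs, which can form bone, cartilage and fat) that had been held for 48 h in stiff hydrogel of 18 kPa, against soft hydrogel of 2 kPa. Both groups received the same low glucose medium with fetal bovine serum, and the labels call the gel SA without spelling it out, give no strain, age or sex, and name no genetic change. The design text speaks of quadruplicates, and 3 libraries per group were analysed here. Nothing says that these came from separate animals or cultures, so p-values measure the spread between these libraries only, which may be technical. Members were the protein-coding rows of the deposited gene table with a ribosomal protein symbol (Rpl, Rplp or Rps with a number, or Rpsa) and a mean level of at least 1 FPKM, a read level divided by gene length and library size. The symbol matched 88 rows, and 82 of them passed the level limit, out of 12713 rows of any kind that did so among 33589. The 82 rows carried 77 distinct symbols, 4 of which stood on more than 1 row, and comprised 35 small-subunit and 47 large-subunit rows. The limit was on the mean over both groups, and the 6 rows below it were Rpl3l (0.865 FPKM, just outside), the chromosome 3 row of Rpl21 (0.825), Rpl30l1 (0.146), Rplp0l1 (0.0118) and the rows named Rpl23a and Rpl10a, both listed at 0. Rpl8, at 4.74 FPKM, was the member nearest above the limit.

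Each ribosome carries most of these proteins in a single copy, bound to ribosomal RNA, and cells make them in step. In vertebrates their mRNAs typically begin with a cytosine followed by a run of pyrimidines, the terminal oligopyrimidine (TOP) motif, through which the growth-regulating kinase mTORC1 and the RNA-binding protein LARP1 adjust their translation. Mammalian genomes also hold many processed copies of ribosomal protein genes, so reads can be split between near-identical rows.

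Recovered reads, obtained by dividing out gene length and library size, came to between 14966354 and 16711527 per library. All 10 stromal markers on the list used here (Nt5e, Eng, Thy1, Cd44, Itgb1, Pdgfra, Pdgfrb, Col1a1, Col1a2 and Vcam1) were at 1 FPKM or more, with summed levels of 5064 to 6246 FPKM in stiff and 4661 to 6086 FPKM in soft libraries. All 10 macrophage and leukocyte markers were also at 1 FPKM or more, at 267.7 to 281.1 FPKM in stiff and 284.2 to 285.8 FPKM in soft libraries. None of 4 endothelial markers reached 1 FPKM, and 3 of 4 erythroid markers were listed at 0. In such bulk libraries, fewer cells of a type and less RNA per cell cannot be told apart.

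The windows below are printed because most matched members share a pyrimidine run at the annotated transcript start, a feature that the rule did not use. Promoter entries from RefSeq on the rat build GRCr8 matched 58 of the 82 rows by symbol and chromosome, giving 57 promoters. Each line gives 30 bases before the annotated start and 20 bases from the start on, 5′ to 3′ on the gene's strand, with the longest run of C and T letters that touches the 10 bases on either side of the start in capitals.
Rplp0 (chr12:46718371-46718420, minus strand): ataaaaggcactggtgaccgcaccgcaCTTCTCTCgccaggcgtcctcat
Rplp1 (chr8:71290853-71290902, minus strand): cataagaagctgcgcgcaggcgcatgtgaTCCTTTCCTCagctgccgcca
Rps27 (chr2:177964587-177964636, minus strand): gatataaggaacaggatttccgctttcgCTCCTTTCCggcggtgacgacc
Rps7 (chr6:50999426-50999475, minus strand): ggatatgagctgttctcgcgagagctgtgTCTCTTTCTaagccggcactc
Rpl10 (chrX:157205820-157205869, plus strand): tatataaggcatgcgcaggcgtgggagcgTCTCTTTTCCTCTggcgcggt
Rpl37a (chr9:81748061-81748110, plus strand): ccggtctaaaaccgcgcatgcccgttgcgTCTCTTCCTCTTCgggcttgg
Rpl31 (chr9:49143081-49143130, plus strand): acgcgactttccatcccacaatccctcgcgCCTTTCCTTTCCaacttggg
Rpl14 (chr8:129163590-129163639, plus strand): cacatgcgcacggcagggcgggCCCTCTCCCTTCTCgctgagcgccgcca
Rpl29 (chr8:115947613-115947662, plus strand): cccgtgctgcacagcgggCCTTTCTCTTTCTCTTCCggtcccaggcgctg
For contrast, the windows of Rpl22l1, Rps27l and Rpl11 lacked a long run.
Rpl22l1 (chr2:113683166-113683215, plus strand): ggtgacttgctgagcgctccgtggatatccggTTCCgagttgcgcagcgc
Rps27l (chr8:76443628-76443677, plus strand): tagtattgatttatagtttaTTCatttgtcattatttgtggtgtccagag
Rpl11 (chr5:153560783-153560832, minus strand): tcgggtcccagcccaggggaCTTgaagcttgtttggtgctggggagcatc

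A run of at least 7 pyrimidines at the start was found in 39 of the 57 member promoters (68.4%), against 5241 of 27457 promoters of all genes in that table (19.1%). The longest run had a median of 10 letters in members and 4 letters over all genes. It was 18 letters in Rpl29, 13 in Rpl10 and Rpl37a, 12 in Rpl31, which begins exactly at the annotated start, 8 in Rplp0, and 3 in Rpl11 and Rps27l. Motifs were searched as exact letters on both strands of the whole window of 300 bases, 250 before and 50 after the start. CTTCCGG, the core bound by ETS factors, was present in 18 member promoters (31.6%, against 9.21% of all promoters), and in Rpl29 its first letters lie inside the pyrimidine run. The palindrome CTCGCGAG was present in 8 (14%, against 0.83%), Rps7 among them, where it can be read in the printed window. GGGCGG, the box bound by SP1, was present in 32 (56.1%, against 34.7%), and TATAAA in 8 (14%, against 14.3%). AAGATGGC, a core bound by YY1, was in 3 (5.26%, against 3.41%), and the E-box CACGTG in 4 (7.02%, against 6.63%). These matches describe letters, not binding.

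**Figure D1:**
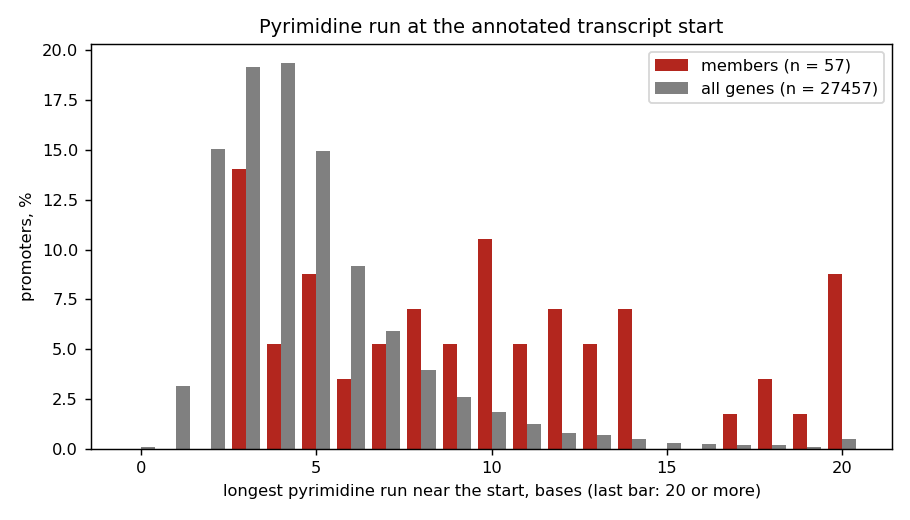
Share of promoters (vertical axis, %) by the length of the longest pyrimidine run touching the 10 bases on either side of the annotated start (horizontal axis, bases), for 57 members (red, left bar of each pair) and all 27457 promoters of the RefSeq table (grey). Members spread over longer runs, with a median of 10 letters, while all promoters peak near their median of 4.

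The comparison asks whether the stiffness of the surrounding gel went with a different level of ribosomal protein mRNA. No single member passed the test over all genes, while nearly all of them lay slightly higher in stiff gel, by a median of 1.13-fold in mean FPKM. The test was limma on log2(FPKM + 1) with Benjamini-Hochberg adjustment over all 12713 rows at 0.05, and it called 0 of the 82 members. It called 1.43% of all rows tested (182), 1.01% higher in stiff gel and 0.425% lower. At an unadjusted p under 0.05, 51 members were higher and 0 lower, against 8.46% of all rows higher and 6.95% lower. The fitted log2 fold change, stiff over soft, was above 0 in 78 of 82 members, against 50.4% of all rows. The lowest stiff library lay above the highest soft library in 49 members, against 11.7% of all rows, and the reverse held in 0 members, against 10.9%. Abundant rows had larger shares than all rows. Of 639 other rows at 100 FPKM or more, 23.2% were higher at an unadjusted limma p under 0.05. In 28.5% of them all stiff libraries lay above all soft ones. For the 63 members at that level these shares were 71.4% and 68.3%. The members' median log2 fold change was 0.18, with the middle quartiles between 0.14 and 0.22, beside 0.00 over all rows tested. Limma's voom on the recovered reads called 2 members higher, among them Rpl29 (adjusted p = 0.0256). It called 2.49% of all rows in either direction, 190 higher and 127 lower. With limma's array weights, which give libraries unequal weight, 17 members were called higher and 0 lower. Over all rows 5.39% were then called in either direction, 430 higher and 255 lower.

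The size of the difference depended on how libraries were scaled, and its direction in most members did not. Summed FPKM over all rows was 467372 to 478304 in stiff and 452787 to 457306 in soft libraries. With each library scaled to the same sum, 76 of 82 members lay above 0 and their median was 0.13, beside -0.04 over all rows. After quantile normalization 75 lay above 0, with a median of 0.09. With a trend of level on gene length removed as well, an alternative chosen after seeing the data, 68 lay above 0, with a median of 0.08. Under quantile normalization, with or without that trend removed, the median over other rows is not given. How far the members stood above other rows there cannot be read from these values.

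The members took a larger share of the reads in every stiff library than in any soft one. Their summed share of recovered reads was 2.54%, 2.57% and 2.74% in stiff libraries, against 2.32%, 2.34% and 2.33% in soft libraries. The mean was 2.61% ± 0.106 in stiff and 2.33% ± 0.00902 in soft libraries (SD, n = 3 each), and stiff replicate 3 stood highest. In summed FPKM the share was 7.15%, 7.21% and 7.51% in stiff and 6.64%, 6.61% and 6.61% in soft libraries. Relative to its own mean over all libraries, the median member lay at 0.05, 0.07 and 0.14 in stiff libraries and at -0.09, -0.07 and -0.09 in soft libraries on the log2 scale. Without stiff replicate 3 the median log2 fold change was 0.16, with 76 members above 0. Mitochondrial genes took 2.85% to 3.33% of reads in the 3 stiff libraries, against 2.15%, 3.13% and 2.99% in the soft ones, where replicate 1 was lowest, and without that library the median was 0.17 and 78 members were above 0.

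**Figure D2:**
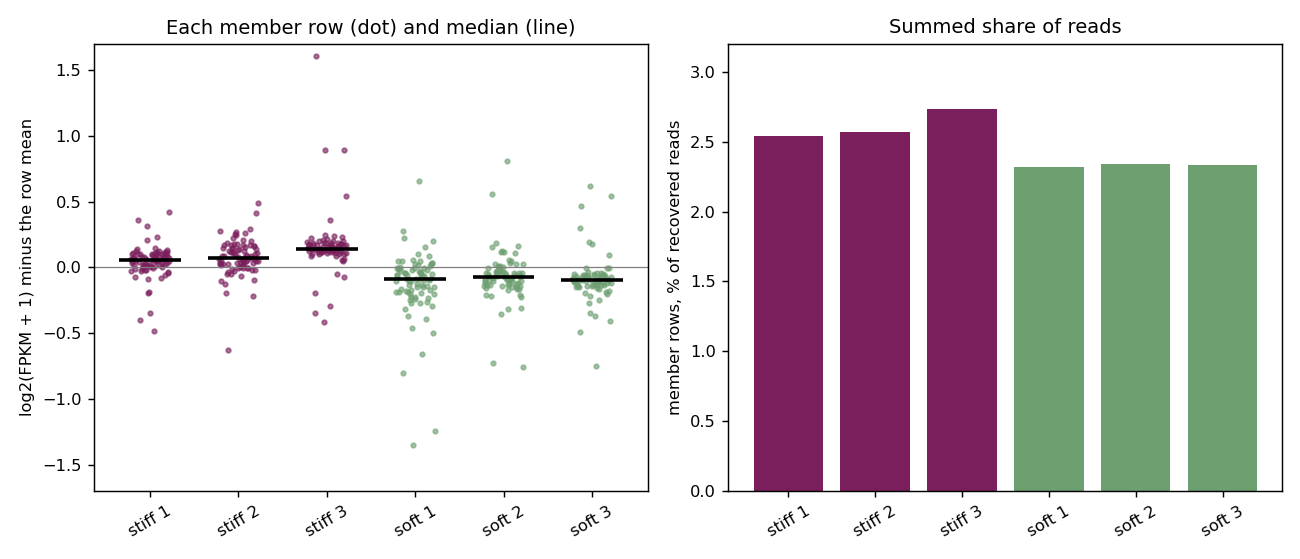
Left, log2(FPKM + 1) of each of the 82 member rows minus its mean over the 6 libraries (dots), with the median as a line, for stiff (purple) and soft (green) libraries. Right, the summed share of recovered reads in member rows (%), which runs from 2.54% to 2.74% in stiff and from 2.32% to 2.34% in soft libraries, so that all stiff bars stand above all soft bars.

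Other rows that moved with the groups are given beside this. The 6 cycling markers (Mki67, Top2a, Cdk1, Ccnb1, Plk1 and Cdc20) summed to 54.1 to 57.8 FPKM in stiff and 32.5 to 33.7 FPKM in soft libraries, and 5 of them were called higher. Among the 10 macrophage and leukocyte markers, Cd68 and Cd53 were called lower in stiff gel and Adgre1 higher. Their part in the members' difference was not tested.

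Level and gene length were compared because other abundant genes also leaned towards stiff gel. Among 639 other rows at 100 FPKM or more, the median log2 fold change was 0.07 and 68.7% lay above 0. Among the 180 of those with a gene length of up to 1000 bases, the median was 0.09 and 80% lay above 0. The 63 members at 100 FPKM or more had a median of 0.18, and the 19 less abundant members one of 0.16. By length, the 58 members of up to 1000 bases had a median of 0.18 and the 24 longer ones one of 0.17, all 24 above 0. Across the members the Spearman correlation of log2 fold change was -0.179 with gene length and 0.115 with mean FPKM, and across all rows tested it was -0.146 with length. These correlations are over genes of the same 6 libraries and are descriptions. Of the members with a long pyrimidine run at the start, all 38 with a single fold change lay above 0, with a median log2 fold change of 0.18 (Rpl7a, with 2 rows, was left out). All 18 with a shorter run also lay above 0, with a median of 0.16. None of the 4 members below 0 had a matched promoter, so the signs cannot tell the 2 classes apart.

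**Figure D3:**
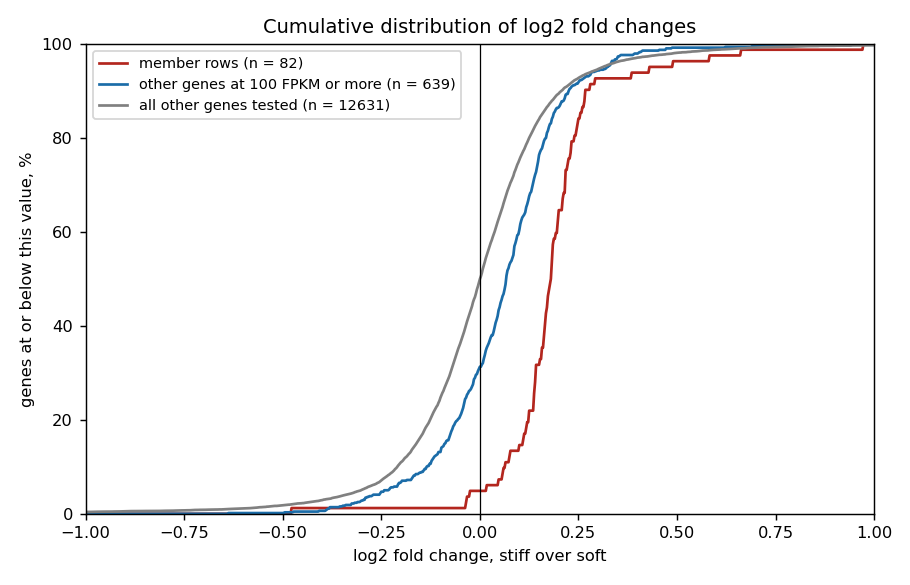
Cumulative share of rows (vertical axis, %) at or below a given log2 fold change, stiff over soft (horizontal axis), for the 82 members (red), the 639 other rows at 100 FPKM or more (blue) and all 12631 other rows tested (grey). The members' curve crosses the middle at 0.18, the abundant rows' at 0.07 and that of all other rows at 0.00.

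The 2 subunits gave nearly the same median. Small-subunit rows had a median log2 fold change of 0.18, with 32 of 35 above 0, and large-subunit rows one of 0.18, with 46 of 47 above 0. Most members lay close together, since 64 of 82 log2 fold changes fell between 0.1 and 0.3 and none exceeded 1. The members' spread within a group was small, with a median coefficient of variation of 5.22% over the stiff and 5.85% over the soft libraries.

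**Figure D4:**
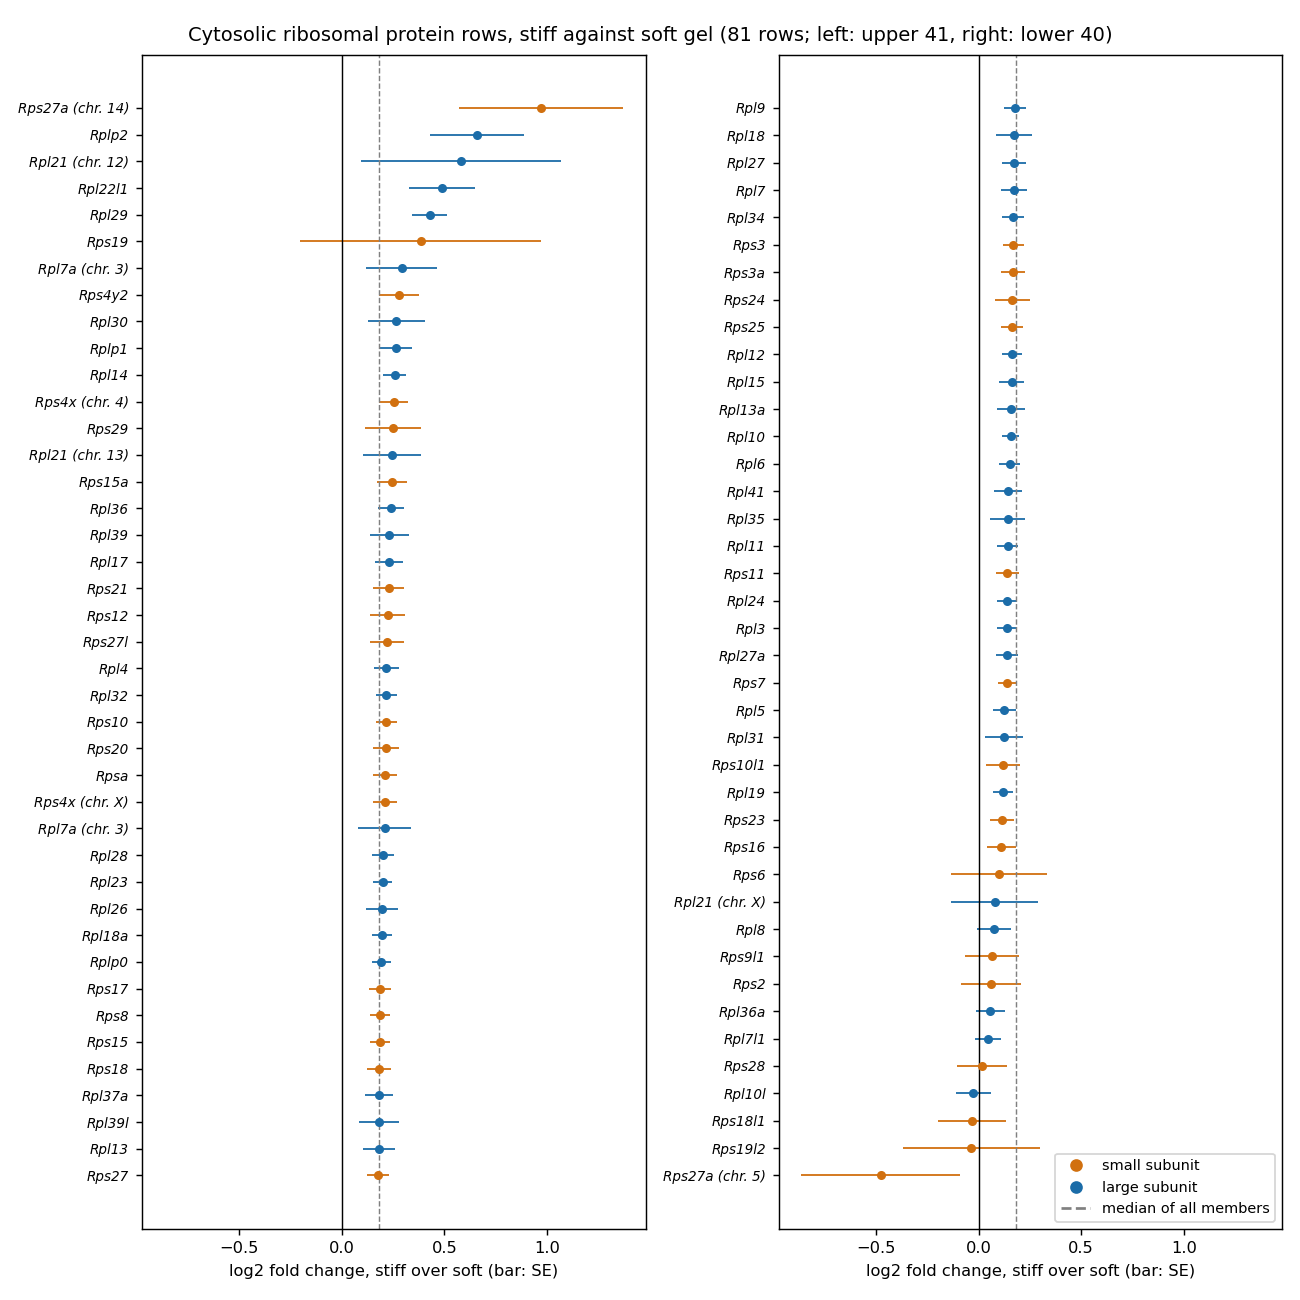
Log2 fold change, stiff over soft, of 81 of the 82 member rows (dots) with its standard error (bars), ranked from the upper left to the lower right, in orange for the small and blue for the large subunit. The dashed line marks the median of 0.18 over all members, and 4 rows lie below 0.

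The P stalk, the flexible arm of the large subunit that recruits translation factors, is formed by Rplp0, Rplp1 and Rplp2. Rplp0 (ENSRNOG00000001148), its base and the most abundant member, had 1406, 1408 and 1487 FPKM in stiff libraries, against 1293, 1230 and 1241 FPKM in soft libraries (log2 fold change 0.19, SE 0.0468, limma adjusted p = 0.115). Rplp1 (ENSRNOG00000013874) had 1057, 1307 and 1197 FPKM in stiff libraries, against 947.3, 993.3 and 1013 FPKM in soft libraries (0.26, SE 0.0793, adjusted p = 0.184). In both genes the groups did not overlap, and neither passed the test. The row named Rplp2 had 11.2, 12.8 and 22.3 FPKM in stiff libraries, against 7.88, 9.12 and 10.1 FPKM in soft libraries (0.66, SE 0.23, adjusted p = 0.237), and without stiff replicate 3 its log2 fold change was 0.38. This row held only a small part of the reads annotated to that protein. Summed over its 4 rows, Rplp2 was at 203.0, 178.5 and 202.7 FPKM in stiff and 185.1, 172.6 and 172.0 FPKM in soft libraries, and its log2 fold change was 0.14.

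The most abundant members after Rplp0 were Rpl41, Rps20, Rplp1, Rpl36 and Rpl35. Rpl41, a very short basic peptide at the subunit interface, had 1261, 1396 and 1392 FPKM in stiff libraries, against 1134, 1307 and 1230 FPKM in soft libraries (0.14, SE 0.0688), and the groups overlapped. Rps20, a protein of the small subunit's head, had 1205, 1163 and 1271 FPKM in stiff libraries, against 1123, 974.1 and 1040 FPKM in soft libraries (0.22, SE 0.0648, limma adjusted p = 0.184). The stiff libraries of Rps20 lay above all the soft ones. Rpl36 averaged 948.8 ± 67.9 FPKM in stiff and 803.0 ± 28.4 FPKM in soft libraries (SD, n = 3 each; 0.24), without overlap. Rpl35, which lies at the exit of the peptide tunnel, averaged 894.7 ± 94.3 FPKM in stiff and 809.5 ± 47.8 FPKM in soft libraries (0.14), with overlap.

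Rpl29, a large-subunit surface protein, came near the threshold. Rpl29 (ENSRNOG00000011138), whose start carries the longest run among the printed windows, had 734.4, 758.1 and 721.7 FPKM in stiff libraries, against 626.6, 498.4 and 526.7 FPKM in soft libraries. Its log2 fold change was 0.43 (SE 0.0846, unadjusted p = 0.00127, limma adjusted p = 0.0628), and soft replicate 1 was the soft library nearest the stiff ones. Without that library it was 0.53 and passed the test (adjusted p = 0.0124), while in the other fits without 1 library the adjusted p ran from 0.162 to 0.222. No second row was annotated to the same protein. At an adjusted p of 0.1 the test called 3 members higher, Rpl29 and Rpl14 among them, against 1.9% of all rows. Rpl14, a large-subunit protein, had 529.4, 553.8 and 583.9 FPKM in stiff libraries, against 442.8, 475.6 and 475.3 FPKM in soft libraries (0.26, SE 0.0557, adjusted p = 0.0856).

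Rpsa, the small-subunit protein also known as the laminin receptor precursor, had 882.2, 858.7 and 943.3 FPKM in stiff libraries, against 816.4, 735.5 and 765.1 FPKM in soft libraries (0.21, SE 0.0589, limma adjusted p = 0.159). Rpl10, which joins late and completes the large subunit, had 814.7, 832.7 and 831.6 FPKM in stiff libraries, against 731.5, 745.1 and 748.7 FPKM in soft libraries (0.16, SE 0.0407, adjusted p = 0.136). The groups of both genes did not overlap, and Rpl10 varied least, with SDs of 10.1 FPKM over the stiff and 9.1 FPKM over the soft libraries. Rpl3, which reaches into the peptidyl transferase centre, averaged 265.7 ± 11.4 FPKM in stiff and 241.6 ± 3.86 FPKM in soft libraries (SD, n = 3 each; 0.14). Rps27 averaged 456.8 ± 22.6 FPKM in stiff and 403.3 ± 11.9 FPKM in soft libraries (0.18). Rpl3 and Rps27 did not overlap between groups and did not pass the test.

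Rpl5 and Rpl11 form, with 5S ribosomal RNA, the particle that binds MDM2 when ribosome assembly stalls. Rpl5 had 501.0, 470.5 and 534.1 FPKM in stiff libraries, against 447.5, 464.0 and 467.4 FPKM in soft libraries (0.12, SE 0.0573, limma adjusted p = 0.359). Rpl11, which has a single row and whose annotated start lacks a long pyrimidine run, had 90.5, 99.0 and 98.3 FPKM in stiff libraries, against 85.9, 87.6 and 87.1 FPKM in soft libraries (0.14, SE 0.0529, adjusted p = 0.276). Both lay higher in every stiff library than in any soft one. The row named Rps6, the substrate of the S6 kinases, held little signal, with 20.57, 19.51 and 12.02 FPKM in stiff libraries, against 11.6, 17.8 and 18.8 FPKM in soft libraries (0.10, SE 0.235), and the groups overlapped.

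Rpl22l1, a paralog of Rpl22 known to act in RNA processing as well, had 74.1, 75.9 and 74.5 FPKM in stiff libraries, against 39.6, 64.5 and 58.4 FPKM in soft libraries. Its log2 fold change was 0.49 (SE 0.162, limma adjusted p = 0.222), and soft replicate 1 was far below the other two, without which it was 0.28. Rpl22 itself stood under the name LOC100360057 outside the rule, at 321.1 ± 17.0 FPKM in stiff and 285.9 ± 17.3 FPKM in soft libraries (SD, n = 3 each; 0.17). Rps27l, a paralog of Rps27 that p53 can induce in human cells, had 119.7, 126.7 and 136.1 FPKM in stiff libraries, against 97.7, 118.6 and 112.3 FPKM in soft libraries (0.22, SE 0.084). The Rps27l groups were parted by a narrow margin, and without soft replicate 1 the log2 fold change was 0.14. Rpl7l1, related to Rpl7, had 67.8, 66.1 and 60.6 FPKM in stiff libraries, against 65.3, 59.2 and 63.6 FPKM in soft libraries (0.05, and -0.0027 with libraries scaled to the same sum). Rpl10l, which in mouse serves the male germ line, was at 6.59, 6.46 and 6.23 FPKM in stiff and 7.33, 6.28 and 6.13 FPKM in soft libraries (-0.03). Rpl39 averaged 42.6 ± 2.95 FPKM in stiff and 36.3 ± 4.23 FPKM in soft libraries (0.23, and 0.15 without soft replicate 1), and its paralog Rpl39l averaged 40.1 ± 1.06 FPKM in stiff and 35.5 ± 4.92 FPKM in soft libraries (0.18). Rps4x on chromosome X averaged 359.4 ± 17.8 FPKM in stiff and 310.9 ± 15.1 FPKM in soft libraries (0.21), its row on chromosome 4 averaged 68.8 ± 4.59 FPKM in stiff and 57.6 ± 3.45 FPKM in soft libraries (0.25), and Rps4y2 averaged 17.9 ± 0.409 FPKM in stiff and 14.6 ± 2.03 FPKM in soft libraries (0.28). None of these paralogs passed the test.

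Rows annotated to the same protein as another row were among those farthest from the other members. The sequences of these rows were not compared. Rps27a encodes a fusion of ubiquitin with a small-subunit protein and had a row on chromosome 14 (113966611 to 113968268) and one on chromosome 5 (138628482 to 138629026), on a build that the files leave unnamed. The chromosome 14 row had 637.4, 667.8 and 694.6 FPKM in stiff libraries, against 200.2, 280.7 and 694.3 FPKM in soft libraries (0.97, SE 0.398, limma adjusted p = 0.308). The chromosome 5 row had 218.9, 318.5 and 249.5 FPKM in stiff libraries, against 483.6, 536.3 and 181.9 FPKM in soft libraries (-0.48, SE 0.386, adjusted p = 0.607). In both rows soft replicate 3 lay nearest the stiff libraries, and the 2 rows had opposite signs. The chromosome 14 row held 71.6%, 64.4% and 70.6% of the reads of the pair in stiff libraries, against 26.4%, 31.1% and 76.7% in soft libraries. Summed, the pair had 890.7, 1036 and 983.3 FPKM in stiff libraries, against 759.8, 901.3 and 904.7 FPKM in soft libraries (0.18, adjusted p = 0.37), which is the members' median. Without soft replicate 3 the chromosome 14 row alone had a log2 fold change of 1.49 and passed limma's test (adjusted p = 0.019), and without soft replicate 1 it had one of 0.59. The chromosome 5 row ran from -0.97 without soft replicate 3 to -0.19 without soft replicate 2.

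Rps19, mutated in Diamond-Blackfan anaemia, and its copy Rps19l2 also varied widely within groups. Rps19 had 79.9, 68.0 and 325.3 FPKM in stiff libraries, against 84.9, 63.7 and 146.5 FPKM in soft libraries (0.38, SE 0.588, limma adjusted p = 0.81). Its log2 fold change was -0.33 without stiff replicate 3, 0.12 without soft replicate 2, and 0.68 to 0.80 without stiff replicate 1 or 2 or soft replicate 3. Rps19l2 had 116.7, 123.6 and 85.1 FPKM in stiff libraries, against 61.8, 160.3 and 133.5 FPKM in soft libraries (-0.04), and the groups of both rows overlapped. The 4 rows annotated to the Rps19 protein summed to 195.5, 190.7 and 415.8 FPKM in stiff libraries. In soft libraries they summed to 151.9, 218.8 and 273.9 FPKM (log2 fold change 0.25), so the sum still varied widely and the groups overlapped. For Rpl21, the chromosome 12 row had 141.1, 183.0 and 301.3 FPKM in stiff libraries, against 62.9, 146.5 and 249.1 FPKM in soft libraries (0.58, SE 0.487). Its log2 fold change was 0.05 without soft replicate 1, 1.04 without soft replicate 3 and 0.28 without stiff replicate 3. Its share of the reads of the 3 Rpl21 member rows was 43.3%, 52.9% and 62.3% in stiff libraries, against 25.5%, 46.8% and 67.1% in soft libraries. The 4 rows annotated to the Rpl21 protein summed to 327.6, 346.9 and 484.0 FPKM in stiff libraries. In soft libraries they summed to 247.0, 313.8 and 372.2 FPKM (log2 fold change 0.31), again with overlap. The sources used here do not say how reads matching several rows were assigned, so single values of these rows are uncertain. Both Rps27a rows, Rps19, Rps19l2 and the chromosome 12 row of Rpl21 were also the only members with a coefficient of variation above 30% over the soft libraries.

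**Figure D5:**
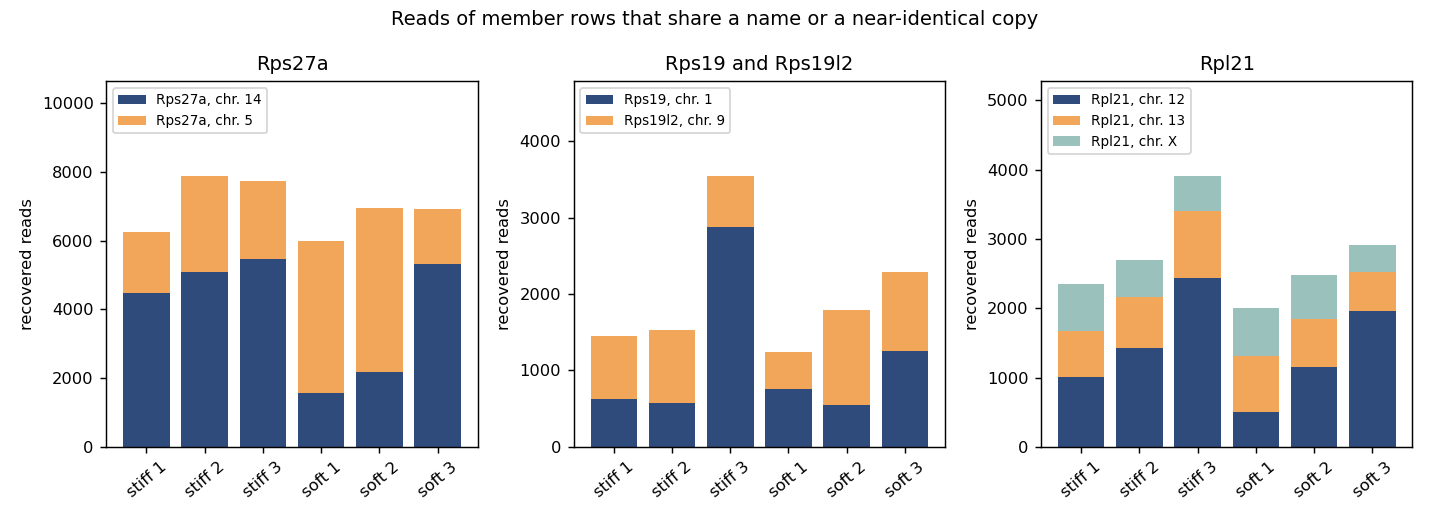
Recovered reads per library (vertical axis) in the member rows of Rps27a, of Rps19 with Rps19l2, and of Rpl21, stacked by row, with stiff libraries left of soft ones. The chromosome 14 row of Rps27a holds 64.4% to 71.6% of the pair in stiff libraries and 26.4%, 31.1% and 76.7% in the 3 soft libraries, while the stacked totals of that pair run from 6249 to 7890 reads in stiff and from 6007 to 6954 in soft libraries.

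Several further members had values close to 0 change or few reads. Rps2, a protein at the mRNA entry site, averaged 666.0 ± 85.6 FPKM in stiff and 643.5 ± 125 FPKM in soft libraries (SD, n = 3 each; 0.06), and its log2 fold change was -0.08 with quantile normalization. Rps28 averaged 222.3 ± 29.2 FPKM in stiff and 219.6 ± 27.7 FPKM in soft libraries (0.02), and its sign turned with each library scaled to the same sum, with quantile normalization and with voom. Rpl36a, whose protein contacts tRNA in the exit site, averaged 123.8 ± 10.1 FPKM in stiff and 118.8 ± 5.62 FPKM in soft libraries (0.06). Rps18l1 averaged 22.7 ± 4.62 FPKM in stiff and 23.1 ± 3.61 FPKM in soft libraries (-0.03). Rps9l1 averaged 9.07 ± 1.5 FPKM in stiff and 8.60 ± 1.12 FPKM in soft libraries (0.06). The row named Rpl8 averaged 4.89 ± 0.248 FPKM in stiff and 4.60 ± 0.341 FPKM in soft libraries (0.07), a small part of the signal annotated to that protein. Its 3 rows summed to 37.04, 36.14 and 40.35 FPKM in stiff and 36.37, 31.48 and 33.17 FPKM in soft libraries (0.16), with overlap. One of the 2 chromosome 3 rows of Rpl7a averaged 27.6 ± 4.81 FPKM in stiff and 22.5 ± 5.25 FPKM in soft libraries (0.29, and 0.16 to 0.46 with 1 library left out). The groups of all 7 member rows named here overlapped.

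Outside the symbol rule, 106 rows were annotated by name or description as cytosolic ribosomal proteins or their copies, and 60 of them passed the level limit. None was called by limma, and 17 were higher at an unadjusted p under 0.05, against 8.46% of all rows. Their median log2 fold change was 0.14, with 46 above 0, against 50.4% of all rows. The most abundant was LOC100911847, annotated as Rps14, with 974.8, 939.5 and 1035 FPKM in stiff libraries, against 919.5, 884.2 and 874.0 FPKM in soft libraries (0.14, SE 0.052, adjusted p = 0.275). Fau, which fuses a ubiquitin-like domain to a small-subunit protein, had 93.0, 415.8 and 503.5 FPKM in stiff libraries, against 381.2, 295.0 and 408.2 FPKM in soft libraries (-0.41, SE 0.578), with stiff replicate 1 far below the rest. When the reads of all rows of 1 protein were summed, an alternative chosen after seeing the data, 72 of the 73 proteins with a member row had a log2 fold change above 0. Their median was 0.18, none was called by limma, and 48 were higher at an unadjusted p under 0.05, against 8.46% of all rows. In 48 the stiff libraries lay above all the soft ones, against 11.7% of all rows. The rows named Rpl23a and Rpl10a are listed at 0. For Rpl23a, 2 other rows annotated to the protein summed to 12.6 to 16.4 FPKM in stiff and 13.7 to 17.0 FPKM in soft libraries. For Rpl10a, 1 other row, LOC100363537, listed as a pseudogene, had 18.3 to 19.99 FPKM in stiff and 15.5 to 19.4 FPKM in soft libraries.

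Other genes tied to the same control were read from a list of 47, of which 43 were measured. None was called by limma, while 6 were higher and 2 lower at an unadjusted p under 0.05, against 8.46% and 6.95% of all rows. Of 17 other mRNAs known to carry a TOP start, mostly elongation and initiation factors, 15 had a log2 fold change above 0 with a median of 0.12. In 8 the stiff libraries lay above all the soft ones, against 11.7% of all rows and 28.5% of non-member rows at 100 FPKM or more. The log2 fold changes ran from -0.30, in the initiation factor gene Eif3h, to 0.23, and that of Eef1a1, the elongation factor gene and most abundant of these, was 0.08. Eef1b2 and Hnrnpa1 had the smallest p of this group. Eef1b2, an exchange factor for elongation factor 1A, had 176.4, 193.1 and 191.4 FPKM in stiff libraries, against 148.0, 165.5 and 165.8 FPKM in soft libraries (0.23, SE 0.0649, adjusted p = 0.171). Hnrnpa1, an RNA-binding protein, had 90.2, 95.3 and 101.4 FPKM in stiff libraries, against 75.4, 84.6 and 84.1 FPKM in soft libraries (0.23, SE 0.0682, adjusted p = 0.181). The groups did not overlap in either gene.

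Of 7 fusion proteins and factors that act on the ribosome, 6 lay above 0, among them Rack1, the scaffold on the small subunit's head. Rack1 had 275.3, 286.3 and 282.2 FPKM in stiff libraries, against 248.2, 252.5 and 249.0 FPKM in soft libraries (0.17, SE 0.0424, adjusted p = 0.122). The 19 regulators of ribosomal protein genes or of TOP translation had a median log2 fold change of 0.01, with 11 above 0. Among them Myc, a transcription factor that drives ribosome production, had 17.7, 18.3 and 17.9 FPKM in stiff libraries, against 15.7, 13.0 and 13.7 FPKM in soft libraries (0.33, SE 0.0772, adjusted p = 0.107). Larp1, the TOP-binding repressor, averaged 34.3 ± 2.07 FPKM in stiff and 39.3 ± 2.31 FPKM in soft libraries (SD, n = 3 each; -0.19, adjusted p = 0.251). Tsc2, an inhibitor of mTORC1, averaged 15.3 ± 0.671 FPKM in stiff and 17.4 ± 0.783 FPKM in soft libraries (-0.18, adjusted p = 0.255). Larp1 and Tsc2 were named after their values were seen, as the 2 members of the list that were lower at an unadjusted p under 0.05. The 17 measured ribosomal protein genes linked to Diamond-Blackfan anaemia were all members. All 17 had a log2 fold change above 0, with a median of 0.17, and none was called. This is close to the members as a whole, with 78 of 82 above 0 and a median of 0.18.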

How the data were processed

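PolyA RNA of 6 libraries, 3 per gel, prepared with QIAGEN's QIAseq FX Single Cell kit per the labels, was read from 1 gene table of FPKM. The authors deposited FPKM per gene, made with HTSeq, Cufflinks 2.1.1 and Bowtie 0.12.9 per the submitters' processing notes. Those notes name mouse builds, mm10 and GRCm38, while the rows carry rat Ensembl identifiers. The sources used here do not state strand use or the handling of multiply mapped reads. FPKM times gene length gave whole reads for 100% of values within 0.0001. No 2 replicates were alike within sampling noise (chi-square per degree of freedom of 3.57 or more). Soft replicate 1 differed most, at 15.78 and 12.69 against soft replicates 2 and 3, which gave 3.57 between them. Pairs of stiff libraries gave 5.19 to 8.18. Rows at a mean of 1 FPKM or more were fitted as log2(FPKM + 1) in limma 3.58.1 (R 4.3.3) with an intensity trend, two-sided, stiff over soft, adjusted at 0.05. This scale understates changes of low rows. The fit was tested on simulated data. The members and lists were chosen with earlier results of these data known. Named members were the 8 largest and 8 smallest log2 fold changes, the 6 most and 4 least abundant, and those with set roles. In related genes and copies, with none called, the 4 with the smallest p and the 4 most abundant were named. Values of 2 genes, 1 of them a member, are not reported here. Alternatives changed the pseudocount, filter, scaling, length trend, variance model, weights, genes tested and threshold, added a replicate term and left out each library.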

Additional observations from a re-analysis of the deposited data

How the results depend on the processing

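Members called numbered 0 as reported, 2 at a minimum of 5 FPKM, 17 with array weights, 2 among protein-coding genes alone, 3 at a threshold of 0.1, 2 with voom and 0 to 1 with a library left out, all higher in stiff gel. Rows called over all tested numbered 182 as reported, 218 of 8882 at a minimum of 5 FPKM, 248 of 11419 among protein-coding genes alone, 92 without a filter, 112 without the variance trend, 685 with array weights, 382 at 0.1, 317 with voom and 26 to 159 with a library left out. Of these, 128 were higher and 54 lower as reported, 88 and 68 with equal FPKM sums, and 103 and 68 with quantile normalization. Related genes called numbered 3 with array weights and 0 to 1 with a library left out. The members' median was 0.1295 with libraries scaled to equal sums, 0.0921 with quantile normalization, 0.0831 with the length trend also removed, and 0.16 to 0.19 with a library left out; 76 to 79 members then lay above 0.

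Signs turned with array weights for Rpl21 on chromosome 12 (-0.14), Rps19 (-0.049), Rpl10l (0.0442), Rps27a on chromosome 5 (0.0353) and Rps6 (-0.0448). They turned after quantile normalization for members including Rps2 (-0.0791) and Rps28 (-0.0157). At equal sums they turned for Rpl7l1 (-0.0027) and Rps28 (-0.0335), and with voom for Rps28 (-0.0004). The cause was not tested.

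With a library left out, log2 fold changes ran from -0.33 to 0.80 for Rps19, -0.0351 to 0.2123 for Rps2, -0.0799 to 0.1299 for Rps28, -0.0684 to 0.0442 for Rpl10l, -0.16 to 0.13 for Rps18l1, -0.45 to 0.23 for Rps19l2, -0.0435 to 0.1724 for Rps9l1 and -0.11 to 0.33 for Rps6. A block on the replicate number gave 105 calls over all rows and 0 among members. Same-numbered libraries had correlated deviations of 0.06, 0.12 and -0.08, and not every library correlated best with its own number, so they share only a number. The 2 count models planned on recovered reads were not run, and voom was run on those reads. Rows of few reads were less precise: the coefficient of variation over soft libraries had a median of 4.86% at 100 FPKM or more and 13% below.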
